A study of Mus musculus with 6 samples.

Results

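The genes of 10 immune checkpoint ligands were followed in cultured tumour fibroblasts (cancer-associated fibroblasts, CAFs). They are Cd200, Cd47, Cd274, Pdcd1lg2, Cd276, Pvr, Nectin2, Nt5e, Lgals1 and Lgals9, whose products restrain myeloid or T cells from the cell surface or after secretion. The 10 genes were found by symbol among the 55401 genes of the table. They were selected on their measured CPM in Thbs2KO and WT libraries, seen in earlier work on these data, so the difference between genotypes is given for each of them as a description, with no test. A filter on low counts passed 13590 genes, 8 of the 10 ligand genes among them, and Nt5e and Pdcd1lg2 were below it.

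The CAFs came from tumours that grew after mouse tumour organoids (MTOs) were placed orthotopically in the rectum of host mice. In 1 group the hosts were wild type (WT, 3 libraries), and in the other they were Thbs2KO (3 libraries), a knockout of the gene for the secreted matrix glycoprotein thrombospondin-2. All 6 cultures were grown on fibronectin-coated plates in medium with serum. For the mice's age and sex, the organoids' genotype and the design of the Thbs2 allele, the sources used here give nothing. Whether replicates are different mice or repeat cultures is likewise unstated, so a p-value measures the spread among these 6 libraries, which may be technical.

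Checkpoint ligands are brakes on immune cells. Cd200 binds an inhibitory receptor carried mainly by myeloid cells, Cd47 binds Sirpa on macrophages and checks phagocytosis, and Cd47 is also a receptor for thrombospondin-1. PD-L1 (Cd274) and PD-L2 (Pdcd1lg2) engage PD-1 on T cells, and interferon raises PD-L1 in many cell types. The nectin family proteins Pvr and Nectin2 are shared by the inhibitory receptor Tigit and the activating receptor Cd226, Nt5e (CD73) makes extracellular adenosine, and galectins bind glycans on lymphocytes.

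Promoter windows are shown for 2 genes, Cd200, the ligand gene with the widest separation between genotypes, and Lgals9, the ligand gene most raised in the 2 libraries that stand apart from their groups. Both are from RefSeq (GRCm38.p6), lie on the minus strand and are written 5′ to 3′ up to the last base before the gene's start, and 8 of the 10 genes had an entry. Motifs and CpG were counted over 250 bases, of which 22 for Lgals9 lie in its exon and are left off, so 228 are printed. Capitals mark every match, on either strand, to the motifs searched. These were the TATA box TATAAA, the CCAAT box, the GC box GGGCGG, the AP-1 motif TGANTCA, the TEAD core GGAATG, the STAT motif TTCNNNGAA, the interferon response element (GAAA, any 2 bases, GAAA) and the E-box CACGTG.
Cd200, chr16:45409054-45409303: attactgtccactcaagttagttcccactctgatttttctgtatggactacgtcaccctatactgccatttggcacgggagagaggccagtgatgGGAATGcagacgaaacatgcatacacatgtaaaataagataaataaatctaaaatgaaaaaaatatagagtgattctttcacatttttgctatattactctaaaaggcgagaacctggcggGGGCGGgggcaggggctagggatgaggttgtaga
Lgals9, chr11:78984947-78985174: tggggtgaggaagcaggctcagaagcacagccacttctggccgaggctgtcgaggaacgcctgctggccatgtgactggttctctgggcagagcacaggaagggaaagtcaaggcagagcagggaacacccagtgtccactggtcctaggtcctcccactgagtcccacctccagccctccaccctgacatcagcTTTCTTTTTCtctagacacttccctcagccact

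The Cd200 window held 1 TEAD core, found in 12.6% of 32851 mouse promoter windows of 250 bases, and 1 GC box, found in 32.7%. It held 6 CpG dinucleotides, with fewer in 49.6% of windows. The Lgals9 window held 1 match to the interferon response element motif, on the opposite strand. That motif occurred in 2.98% of windows, and among the 8 ligand genes with an entry no other window held it. Lgals9 and Pdcd1lg2 had 3 CpG each, whereas Cd47 had 30 and Cd276 had 29. These matches describe the letters in the windows only, and factor binding was not measured.

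The libraries held between 19649066 and 24417464 expected counts, and levels are given as read counts scaled to library size with TMM factors (CPM), with 1 read worth 0.0419 to 0.0489 CPM. Thbs2 itself was 2327, 4166 and 3705 CPM in WT and 538.2, 424.7 and 412.0 CPM in Thbs2KO, a log2 fold change of -2.89 (standard error, SE, 0.246; edgeR adjusted p = 0.00521). Of the 13590 tested genes, 148 passed an adjusted p of 0.05 (1.09%), 75 higher in Thbs2KO (0.552%) and 73 lower (0.537%). WT replicate 1 and Thbs2KO replicate 3 stood apart from the other libraries of their groups, and no pair was as alike as Thbs2KO replicates 1 and 2. All 10 fibroblast markers were detected, summing to at least 30116 CPM per library, and 0 of them passed in edgeR. Pdgfra was higher in every Thbs2KO library (means 564.8 and 1162 CPM), and Col1a1 was lower in every one (13577 and 11672 CPM). The others overlapped, and over all tested genes groups did not overlap for 19.7%. DESeq2 called Pdgfra alone of the 10, beside 699 of all 13590 tested genes. The 12 leukocyte markers summed to 9.34 to 20.7 CPM (WT) and 8.37 to 14.3 CPM (Thbs2KO). Among these, Lyz2, Cd14, Csf1r and Cd68 passed the filter, with Lyz2 as high as 10.3 CPM in WT replicate 3, and the pan-leukocyte marker Ptprc averaged 0.0705 and 0.0163 CPM and Cd3e had no read. Epithelial markers summed to 19.9 to 26.5 CPM (WT) and 7.28 to 9.63 CPM (Thbs2KO), and endothelial markers to 11.8 to 32.0 and 32.2 to 50.5 CPM, nearly all of it Kdr and Tek. In bulk RNA, fewer cells of a type and less RNA per cell cannot be told apart.

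Cd200, the membrane glycoprotein ligand of the inhibitory receptor Cd200r1, was near the limit of detection in WT and well expressed in Thbs2KO. The gene (ENSMUSG00000022661.14) lies on chromosome 16, 45382135 to 45409053, minus strand, mm10. WT libraries held 6, 35 and 11 reads, or 0.258, 1.53 and 0.461 CPM, and Thbs2KO libraries held 480, 542 and 481 reads, or 22.7, 26.5 and 23.5 CPM. Every Thbs2KO library was far above every WT library, and WT replicate 2 was the highest of its group. The means were 0.751 ± 0.685 and 24.2 ± 2.01 CPM (SD, n = 3 each), 32.3 times higher in Thbs2KO, with a log2 fold change of 5.01 (SE 0.519). Without WT replicate 2, the log2 fold change was 6.06. The endothelial marker sum was also higher in every Thbs2KO library, but by a narrow margin. It was at most 32.03 CPM in WT and at least 32.17 CPM in Thbs2KO. Of the 8 endothelial genes, Kdr averaged 13.1 and 31.5 CPM and Tek 6.48 and 6.43 CPM in the WT and Thbs2KO groups, both with groups that overlapped. The other 6 were under 1 CPM in every library, with Cldn5 at 0. The part of other cells in the Cd200 level was not tested.

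**Figure D1:**
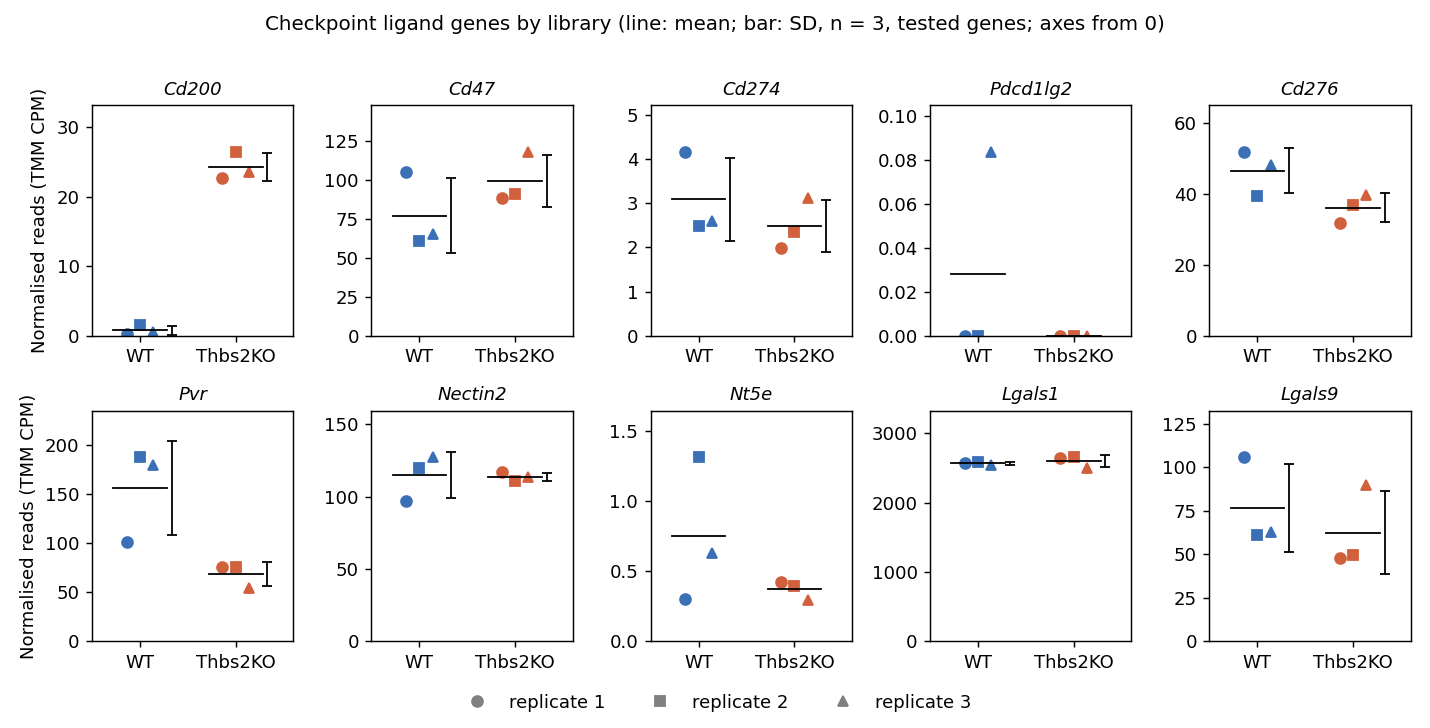
Level of each of the 10 checkpoint ligand genes in TMM CPM (vertical axes from 0, each on its own scale) in the 3 WT libraries (blue) and the 3 Thbs2KO libraries (orange). Marker shapes give the replicate number, lines are means, and bars are SD for the 8 tested genes. Cd200 lay between 22.7 and 26.5 CPM in Thbs2KO and at or under 1.53 CPM in WT, and Pvr lay lower in every Thbs2KO library.

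Cd47 (ENSMUSG00000055447.19, chromosome 16, 49800533 to 49915010, plus strand), the "do not eat me" ligand of Sirpa, was plentiful in both groups. It was 105.1, 60.7 and 65.6 CPM in WT and 88.6, 91.2 and 118.4 CPM in Thbs2KO. The groups overlapped, because WT replicate 1 exceeded 2 of the Thbs2KO libraries. The means were 77.1 ± 24.3 and 99.4 ± 16.5 CPM, a log2 fold change of 0.37 (SE 0.230).

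The myeloid receptors of Cd200 were scarce. Cd200r1 had 16 reads over all 6 libraries, with at most 5 in any library, and its activating relatives Cd200r2, Cd200r3 and Cd200r4 had 5, 5 and 7 reads in all. Sirpa, the Cd47 receptor, averaged 69.1 ± 10.9 CPM in WT libraries and 74.7 ± 7.41 CPM in Thbs2KO libraries. Of 23 genes listed for the Cd200 and Cd47 systems, 15 were tested, of which Thbs2 fell in edgeR, DESeq2 and limma-voom, Cd24a fell in DESeq2 alone, and 0 rose in any of them. Over all 13590 tested genes, edgeR called 148 and DESeq2 called 699. At an unadjusted p under 0.05 in edgeR the counts for the 15 genes were 2 lower and 2 higher. The share of all tested genes at that cut is not given here, so nothing is read from this or any later count at an unadjusted p. Thbs1, the gene of a thrombospondin that binds Cd47, was among the most abundant transcripts. Its means were 14009 ± 2513 CPM in WT libraries and 11333 ± 2178 CPM in Thbs2KO libraries, a log2 fold change of -0.31 (SE 0.194, edgeR adjusted p = 0.594). Cd24a, which restrains phagocytosis through Siglec receptors and also marks epithelium, was 4.14 ± 2.20 and 1.32 ± 0.223 CPM (edgeR adjusted p = 0.139).

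Of the 3 B7 family ligands, Cd276 was the most abundant. Cd274 (ENSMUSG00000016496.7, chromosome 19, 29367455 to 29388095, plus strand), which encodes PD-L1, was 4.18, 2.50 and 2.60 CPM in WT and 1.99, 2.35 and 3.13 CPM in Thbs2KO, from 42 to 97 reads a library. The groups overlapped, and the highest library of each group was WT replicate 1 or Thbs2KO replicate 3. The means were 3.09 ± 0.941 and 2.49 ± 0.584 CPM, a log2 fold change of -0.31 (SE 0.295). Pdcd1lg2 (ENSMUSG00000016498.10, chromosome 19, 29410919 to 29471161, plus strand), the PD-L2 gene beside Cd274, had 2 reads in WT replicate 3 and 0 in the other 5 libraries. At this depth no level could be given for it.

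Cd276 (ENSMUSG00000035914.11, chromosome 9, 58524298 to 58555437, minus strand), which encodes B7-H3, an inhibitory B7 protein common on fibroblasts and tumour cells, was 51.9, 39.5 and 48.1 CPM in WT and 31.6, 36.9 and 39.7 CPM in Thbs2KO. The groups overlapped by a narrow margin, with Thbs2KO replicate 3 above WT replicate 2. The means were 46.5 ± 6.38 and 36.1 ± 4.10 CPM, a log2 fold change of -0.37 (SE 0.133).

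Among other T-cell ligands of the B7 and TNF families, Cd80 and Vsir were well expressed. Cd80 (B7-1), the ligand of CD28 and CTLA-4 that also binds PD-L1, was 96.6 ± 22.7 CPM in WT libraries and 83.3 ± 27.8 CPM in Thbs2KO libraries, above Cd276. Vsir (VISTA), an inhibitory B7 relative, averaged 46.5 ± 9.73 and 54.6 ± 16.8 CPM. Of 19 listed, 13 were below the filter, 6 were tested and 0 passed in edgeR, DESeq2 or limma-voom, with 0 at an unadjusted p under 0.05 in edgeR. The smallest p values belonged to Tnfsf15, a TNF family cytokine, with a log2 fold change of -1.37 (edgeR adjusted p = 0.579), and Icosl, the ligand of the T-cell costimulator ICOS, at 0.44 (edgeR adjusted p = 0.646). Of 15 lymphocyte checkpoint receptors, 13 were not tested, 7 of them with no read in any library, including Pdcd1, Ctla4, Cd226 and Cd96. The 2 tested were Lag3, a receptor of T cells, at 0.299 and 0.629 CPM, and Havcr2 (TIM-3), a receptor of T and myeloid cells, with WT and Thbs2KO means of 12.1 and 11.9 CPM. Neither passed in edgeR, DESeq2 or limma-voom, nor at an unadjusted p under 0.05.

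The pair of nectin family ligands diverged. Pvr (ENSMUSG00000040511.14, chromosome 7, 19903578 to 19921160, minus strand), the poliovirus receptor homologue and high-affinity Tigit ligand, was 101.5, 187.8 and 180.2 CPM in WT and 75.5, 76.2 and 54.0 CPM in Thbs2KO. Every Thbs2KO library was below every WT library, and WT replicate 1 was the WT library nearest to Thbs2KO. The means were 156.5 ± 47.8 and 68.6 ± 12.6 CPM, a log2 fold change of -1.19 (SE 0.258). The summed epithelial marker level was likewise lower in every Thbs2KO library. Krt19, a keratin of simple epithelia and the largest part of that sum, was 12.7 ± 2.53 and 5.18 ± 1.42 CPM and did not overlap, nor did Krt20, whereas the other 4 tested markers, Epcam, Cdh1, Krt8 and Krt18, overlapped between the groups. Over all tested genes, groups did not overlap for 19.7%. Of 6 tested epithelial markers, 0 passed in edgeR or limma-voom (2 in edgeR at an unadjusted p under 0.05). DESeq2 called 2 of the 6, beside 699 of all 13590 tested genes. The part of epithelial RNA in the Pvr level was not tested.

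Nectin2 (ENSMUSG00000062300.14, chromosome 7, 19716644 to 19750483, minus strand), an adhesion protein and weaker ligand of the same receptors, lies 187 kb from Pvr by lowest coordinate. It was 96.9, 119.8 and 127.4 CPM in WT and 116.7, 111.1 and 113.6 CPM in Thbs2KO. All Thbs2KO values lay inside the WT range. The means were 114.7 ± 15.9 and 113.8 ± 2.81 CPM, a log2 fold change of -0.011 (SE 0.109). Per kilobase of exon, the ratio of Pvr to Nectin2 was 0.598, 0.895 and 0.807 in WT and 0.369, 0.392 and 0.271 in Thbs2KO, so that it was lower in every Thbs2KO library.

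Of 11 other nectins and relatives, 8 were tested and 0 passed in edgeR or limma-voom, while 4 had an unadjusted p under 0.05, 2 in each direction. That count has no share of all tested genes beside it, and nothing is read from it. DESeq2 called 1 of the 8, beside 699 of all 13590 tested genes. It was Jam2, a junctional adhesion molecule, at 25.6 ± 9.0 CPM in WT libraries and 46.2 ± 6.32 CPM in the knockout (log2 fold change 0.85, SE 0.273, edgeR adjusted p = 0.247). Afdn, the afadin scaffold that ties nectins to actin, was 59.9 ± 0.945 and 49.1 ± 3.31 CPM (log2 fold change -0.29, SE 0.0748, edgeR adjusted p = 0.158). Afdn lies on chromosome 17, 13760539 to 13906150, the chromosome of the knocked-out Thbs2, at 14665500 to 14694235. Whether that position bears on its level was not tested.

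Nt5e (ENSMUSG00000032420.8, chromosome 9, 88327197 to 88372092, plus strand), which encodes CD73, the surface enzyme that converts AMP to adenosine, was barely transcribed. It had 7, 30 and 15 reads in WT and 9, 8 and 6 reads in Thbs2KO. WT replicate 1 lay within the Thbs2KO range, and the counts were too low for the filter. Of 21 genes of adenosine production, sensing and removal, 16 were tested, 1 rose and 0 fell in edgeR, DESeq2 and limma-voom alike. The gene that rose was Entpd4, an intracellular nucleotidase of the Golgi and lysosome, with means of 21.1 ± 1.14 CPM (WT) and 35.6 ± 4.22 CPM (Thbs2KO) and a log2 fold change of 0.75 (SE 0.110, edgeR adjusted p = 0.0369). Its copy Entpd4b was listed at 20.2 ± 0.852 and 33.1 ± 2.74 CPM, with a value equal to that of Entpd4 in WT replicate 2 and in Thbs2KO replicate 2, so the 2 genes could not be told apart by these reads. Leaving out any library other than WT replicate 1 ended the Entpd4 call. Entpd1 (CD39), which supplies AMP to CD73 at the cell surface, was 3.54 ± 1.16 and 7.15 ± 3.45 CPM (edgeR adjusted p = 0.341).

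The galectin gene Lgals1 was the most abundant of the set, and its 6 values lay close together. Lgals1 (ENSMUSG00000068220.6, chromosome 15, 78926725 to 78930465, plus strand), whose secreted product can drive activated T cells into apoptosis, was 2571, 2588 and 2545 CPM in WT and 2651, 2658 and 2503 CPM in Thbs2KO. The lowest and the 2 highest values were all Thbs2KO libraries. The means were 2568 ± 21.7 and 2604 ± 87.8 CPM, a log2 fold change of 0.020 (SE 0.080).

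Lgals9 (ENSMUSG00000001123.15, chromosome 11, 78962974 to 78984946, minus strand), the interferon-responsive galectin-9 and a proposed ligand of TIM-3, varied more within the groups than between them. It was 105.8, 61.0 and 62.8 CPM in WT and 47.6, 49.3 and 89.8 CPM in Thbs2KO. WT replicate 1 and Thbs2KO replicate 3 were the 2 high libraries, and the groups overlapped. The means were 76.5 ± 25.4 and 62.2 ± 23.9 CPM, a log2 fold change of -0.30 (SE 0.319), which was 0.0077 without WT replicate 1. Of 9 other galectin genes, 4 were tested and 0 passed in edgeR, DESeq2 or limma-voom, with 0 at an unadjusted p under 0.05. Lgals8, a tandem-repeat galectin, was 72.9 ± 22.4 and 80.5 ± 7.72 CPM, and Lgalsl, a galectin-related gene, had a log2 fold change of 0.13. Lgals3, the other abundant galectin, was 194.3 CPM in WT libraries and 193.6 CPM in Thbs2KO libraries.

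Of the 8 tested ligand genes, 2 had groups with no overlap, beside 19.7% of all tested genes. Cd200 had every Thbs2KO library above WT, as did 9.37% of tested genes, and Pvr had every Thbs2KO library below, as did 10.3%. The genes were chosen with these differences known, so nothing is read from these counts. The median log2 fold change of the 8 genes was -0.15, beside -0.0038 over all tested genes. Of the 148 other genes listed for these pathways, 92 were tested and 1 rose and 1 fell (2.17%, beside 1.09% of all tested genes). The gene that fell was Thbs2, the knocked-out gene itself. Groups did not overlap for 21 of the 92 (22.8%, beside 19.7%). A further pair of lists held other suppressive factors and genes that control PD-L1. Of 21 tested suppressive factors 0 passed in edgeR or limma-voom, while 6 had an unadjusted p under 0.05, 3 in each direction. DESeq2 called 5, 2 higher and 3 lower, beside 699 of all 13590 tested genes, 301 higher and 398 lower. Cd1d1, which presents lipids to natural killer T cells, was 6.83 ± 2.27 and 14.4 ± 0.0794 CPM (log2 fold change 1.07, edgeR adjusted p = 0.117). H60b, a ligand of the activating receptor NKG2D, was 0.173 and 0.644 CPM (edgeR adjusted p = 0.127).

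Read per kilobase of exon, the scale on which genes can be set beside each other, Lgals1 stood far above the rest, at 2844 ± 24.1 CPM per kb in WT and 2884 ± 97.3 CPM per kb in Thbs2KO. It exceeded 99.96% of tested genes. In WT, Lgals9 at 35.8 ± 11.9, Nectin2 at 32.8 ± 4.55 and Pvr at 25.6 ± 7.81 CPM per kb followed, with ranges that overlapped from each to the next. Cd276 at 12.7 ± 1.74 and Cd47 at 12.3 ± 3.87 CPM per kb overlapped as well. Cd274 at 0.853 ± 0.260 CPM per kb was above Cd200 at 0.226 ± 0.206 CPM per kb in every pair of WT libraries, and Cd200 overlapped Nt5e.

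In Thbs2KO the order of the means was different. Nectin2, at 32.6 ± 0.805 CPM per kb, was above Lgals9, at 29.1 ± 11.2 CPM per kb, with ranges that overlapped as in WT. Pvr, at 11.2 ± 2.06 CPM per kb, came below Cd47 at 15.8 ± 2.63 CPM per kb and overlapped Cd276 at 9.86 ± 1.12 CPM per kb. Cd200, at 7.30 ± 0.607 CPM per kb, came above Cd274 at 0.687 ± 0.161 CPM per kb. The ratio of Cd200 to Cd47 was 0.0219 ± 0.0228 in WT and 0.470 ± 0.0880 in Thbs2KO, whereas that of Cd276 to Cd274 was 15.4 ± 3.02 and 14.6 ± 1.79.

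**Figure D2:**
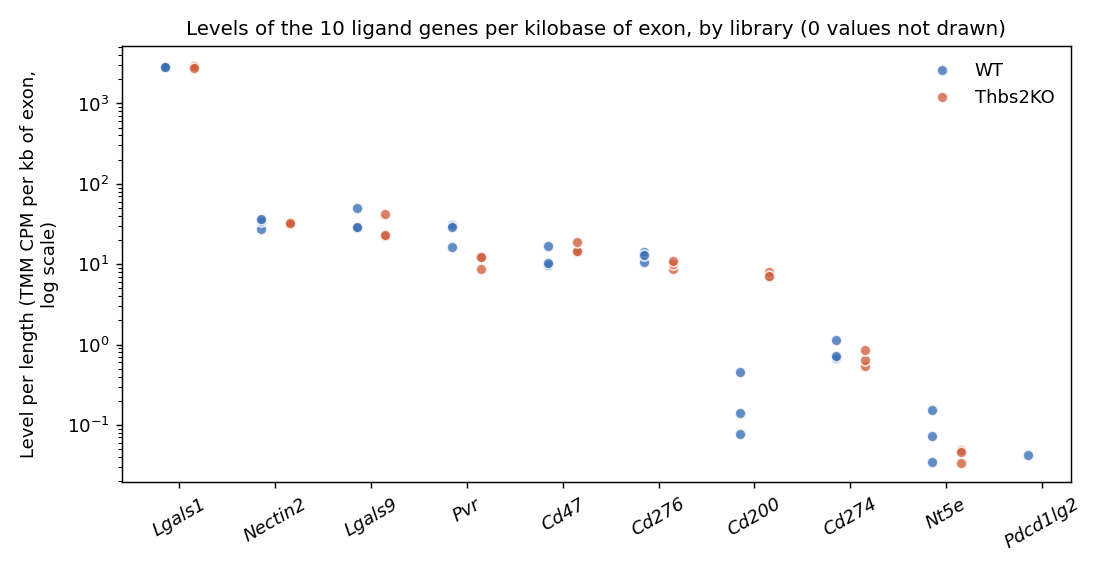
Level of the 10 ligand genes in TMM CPM per kilobase of exon (logarithmic vertical axis), 1 point for each library, with WT in blue and Thbs2KO in orange and values of 0 not drawn. Lgals1 lies near 2844 CPM per kb in WT and 2884 in Thbs2KO, and Cd200 is the gene whose points lie farthest apart, with means of 0.226 and 7.30 CPM per kb.

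Within the groups, several ligand genes followed the 2 libraries that stood apart. Lgals9, Cd47, Cd274 and Cd276 each had their highest WT value in replicate 1 and their highest Thbs2KO value in replicate 3. That was 4 of 8 ligand genes, beside 27.2% of all tested genes. Lgals9 was 1.71 times the mean of the other WT libraries in WT replicate 1 and 1.85 times that of the other Thbs2KO libraries in Thbs2KO replicate 3, and Cd47 was 1.66 and 1.32 times. Pvr went the opposite way, at 0.551 and 0.712 times, and was lowest in both libraries, as were 24.7% of all tested genes. Lgals1 stayed close to its groups, at 1.00 and 0.943 times.

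The interferon signalling genes Stat2 and Irf9 separated the same 2 libraries more widely. Stat2, a transcription factor of the type I interferon response, was 105.5, 29.8 and 28.3 CPM in WT and 27.4, 27.8 and 100.4 CPM in Thbs2KO. Irf9, its DNA-binding partner, was 2.76 and 2.41 times as high in these libraries as in the rest of each group. Of the 20 tested genes of interferon signalling and PD-L1 control, 11 had both libraries highest (55%, beside 27.2% of all tested genes). Both libraries were lowest for 3 (15%, beside 24.7%). Of the 20 genes, 0 passed between genotypes in edgeR, DESeq2 or limma-voom. At an unadjusted p under 0.05 in edgeR there was 1, Spop, a ubiquitin ligase adaptor that targets PD-L1 (log2 fold change -0.30, edgeR adjusted p = 0.372). Hip1r, which sends PD-L1 to lysosomes, had a log2 fold change of -0.34 (edgeR adjusted p = 0.578). Leaving out the 2 libraries together, the log2 fold change was 4.63 for Cd200, 0.51 for Cd47, -0.35 for Cd276, -1.28 for Pvr and -0.35 for Lgals9. What sets these 2 libraries apart was not tested.

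**Figure D3:**
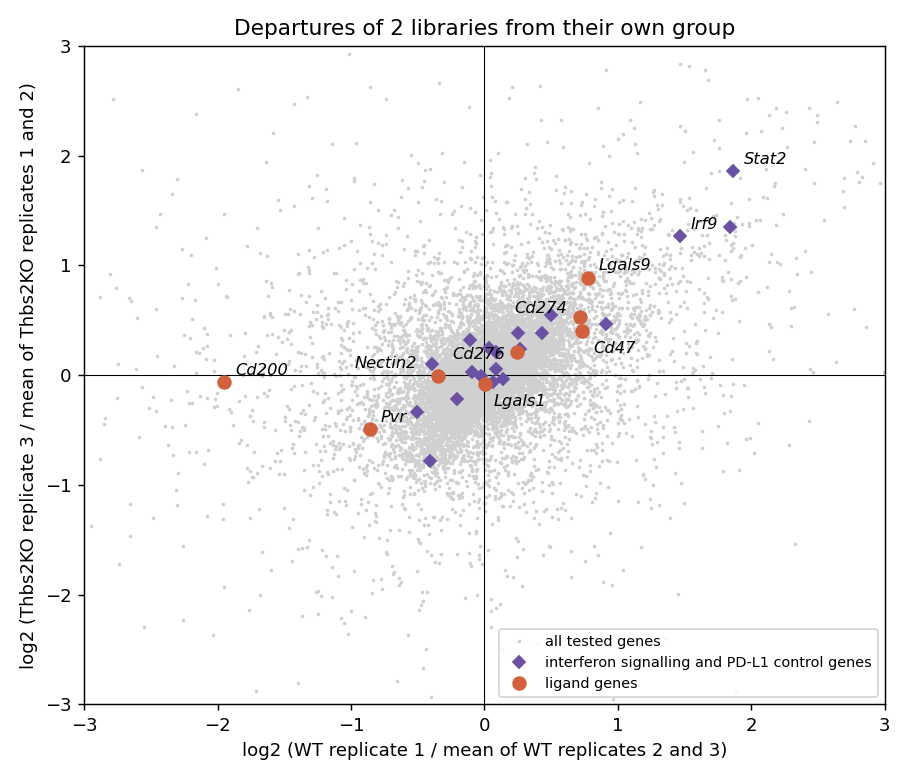
For each tested gene, log2 of the ratio of WT replicate 1 to the mean of the other WT libraries (horizontal axis) against log2 of the ratio of Thbs2KO replicate 3 to the mean of the other Thbs2KO libraries (vertical axis). Grey points are all tested genes, purple diamonds the 20 genes of interferon signalling and PD-L1 control, and orange circles the 8 ligand genes; 13470 genes lie inside the axes. Lgals9, Cd274, Cd47 and Cd276 lie to the upper right with Stat2 and Irf9, and Pvr lies to the lower left.

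No tested gene around Cd200 came near its difference. Of 12 tested genes within 1 Mb, 0 passed in edgeR, DESeq2 or limma-voom, with 5 at an unadjusted p under 0.05 in edgeR. Groups did not overlap for 3 of the 12 (25%, beside 19.7% of all tested genes). Without WT replicate 1, Phldb2 and Gm15640 passed, both lower in Thbs2KO. Atg3, an autophagy enzyme, was 52.4 and 50.4 CPM in WT and Thbs2KO (log2 fold change -0.055), and Abhd10, a mitochondrial hydrolase, was 9.29 and 8.77 CPM (log2 fold change -0.084). Ccdc80, a secreted matrix protein, was 1026 ± 183 and 697.8 ± 195 CPM (log2 fold change -0.56), and Phldb2, which anchors microtubules at adhesions, was 478.4 ± 95.6 and 364.6 ± 9.43 CPM (log2 fold change -0.39). The highest value was that of Tagln3, at 1.76, from 0.172 and 0.596 CPM.

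Around Pvr, 35 genes were tested within 1 Mb, and 5 passed (14.3%, beside 1.09% of all tested genes), 4 higher and 1 lower. Groups did not overlap for 17 of the 35 (48.6%, beside 19.7%). DESeq2 called 11, 5 higher and 6 lower, beside 699 of all 13590 tested genes in DESeq2. Apoe alone passed without WT replicate 3, without Thbs2KO replicate 1 or with Thbs2KO replicates 1 and 2 summed, so the calls of Apoc1, Igsf23, Ercc1 and Mark4 were lost there. Apoe, the lipid carrier of macrophages, glia and fibroblasts, rose from a mean of 3.53 ± 0.451 CPM to 198.3 ± 127.6 CPM (a log2 fold change of 5.81, SE 0.521, edgeR adjusted p = 0.00579). Its neighbour Apoc1, another apolipoprotein, had 0 reads in WT and 4.49, 4.36 and 9.04 CPM in Thbs2KO, at least 46.3-fold higher against a floor of 3 reads per library (edgeR adjusted p = 0.0229). Igsf23, an immunoglobulin superfamily gene, rose from 0.0719 to 0.891 CPM (edgeR adjusted p = 0.0410). Ercc1, a DNA repair nuclease subunit at 19344778 to 19356524, rose from 31.8 ± 1.58 to 54.9 ± 7.95 CPM (edgeR adjusted p = 0.0408). Its end overlaps Cd3eap on the opposite strand, from 19356014 to 19356524, and unstranded reads could not be separated in that stretch. Mark4, a microtubule affinity kinase, fell from 48.6 ± 1.5 to 29.5 ± 2.24 CPM (edgeR adjusted p = 0.0160). Of the tested genes, Tomm40, Nectin2, Bcam and Bcl3 lie between Apoe and Pvr, and none of them passed in edgeR. Bcam, a laminin-binding adhesion protein, was 9.23 ± 5.65 and 3.66 ± 1.09 CPM (edgeR adjusted p = 0.278).

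**Figure D4:**
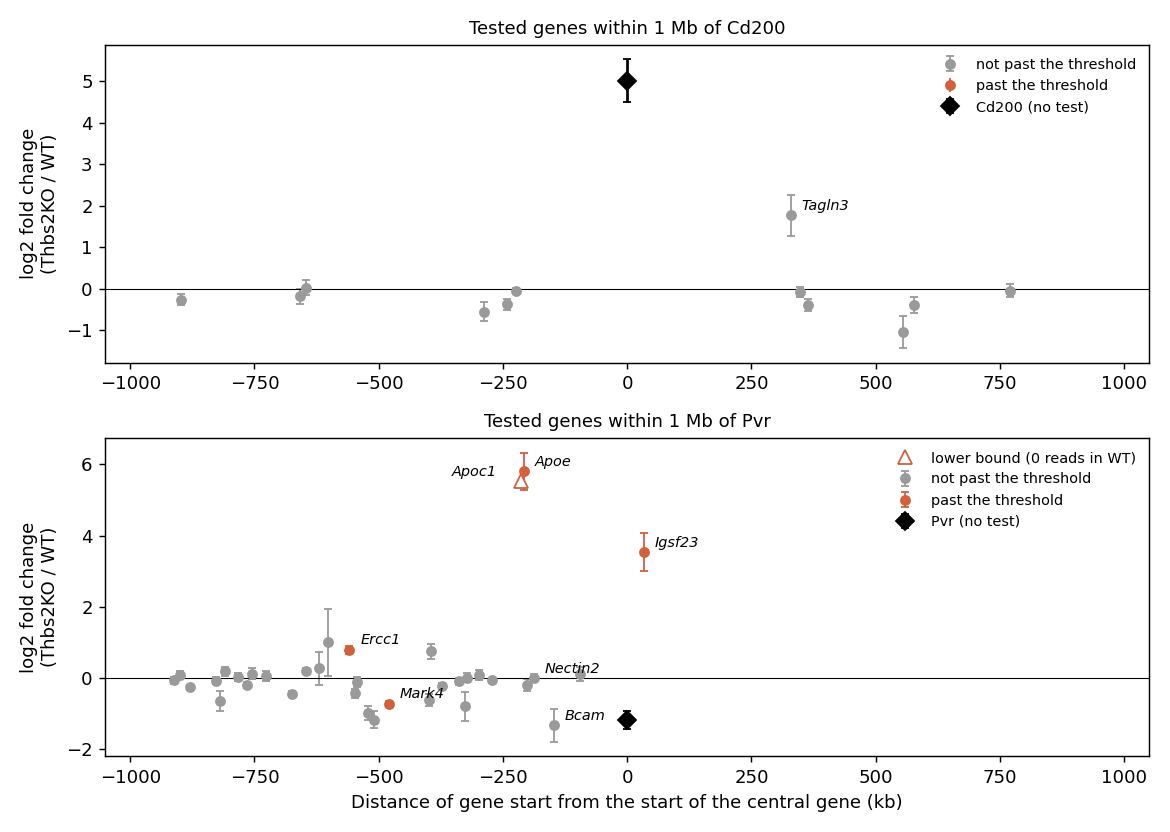
Log2 fold change (Thbs2KO over WT, vertical axis, bars SE) of tested genes within 1 Mb of Cd200 (top) and of Pvr (bottom), against distance in kb from the start of that gene. Starts here are the lowest coordinates of the genes, whatever their strand. Orange marks genes past the threshold, the open triangle is a lower bound for Apoc1, and the black diamond is the central gene, given with no test. Cd200 lies at 5.01 and its 12 tested neighbours between -1.05 and 1.76, and Apoe, at 5.81, is the neighbour of Pvr that also passed without WT replicate 3.

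The genes whose levels tracked Cd200 most closely over the 6 libraries were Slc14a1, a urea transporter (Pearson r of log2 CPM 0.995), Gnpat, a peroxisomal enzyme of plasmalogen synthesis (0.993), Dixdc1, a Wnt pathway protein (0.993), Fam177a (0.992) and Zbtb14, a zinc finger repressor (0.990). In all, 92 of 10147 genes had an r above 0.95, and since the 6 points fall into the 2 genotypes this r mostly restates the separation between them. Dixdc1 was 6.53 ± 1.02 CPM in WT and 20.3 ± 1.18 CPM in Thbs2KO, a narrower separation than that of Cd200. Fam177a has a near-identical copy, Fam177a2, with no read, so its level is uncertain.

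For Pvr, the most alike were Cldn12, a claudin (0.998), Dusp14, a phosphatase (0.997), Ptprm, an adhesive receptor phosphatase (0.996) and Wwp2, a ubiquitin ligase (0.995). An r above 0.95 was found for 149 genes. Cldn12 was 55.6 ± 7.67 CPM in WT and 39.6 ± 2.86 CPM in Thbs2KO, a log2 fold change of -0.49 beside the -1.19 of Pvr. These r values describe 6 libraries that share 2 groups and 2 libraries apart.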

How the data were processed

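RNA-seq libraries of cultured CAFs (3 WT, 3 Thbs2KO) were prepared with a TruSeq v2 kit, which does not mark strand, per the labels' protocols. The authors deposited expected counts per gene, estimated by RSEM, which shares reads that match several genes between them. Trimmomatic 0.39, STAR 2.7.3a and RSEM with mm10 were used, per the submitters' processing notes; the RSEM version and the annotation were not given in the sources used here.

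Expected counts were rounded to whole numbers (3.80% to 3.88% per library were not whole). Genes passing filterByExpr were scaled with TMM and tested with the quasi-likelihood test of edgeR 4.0.16 in R 4.3.3 (robust, genotype as the only term), with Benjamini-Hochberg adjustment over 13590 genes and a threshold of 0.05. All adjusted p values in the text come from that fit, and the SE of a log2 fold change was derived from its F statistic. Voom used limma 3.58.1. Positions and exon lengths come from GENCODE M21 (GRCm38), matched by identifier for 99.5% of genes. The steps were tested on simulated data, and matplotlib 3.10.9 (Python 3.11.15) drew the figures.

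The ligand genes, the pathway lists and the marker lists were chosen with earlier results of these data known. The text names every ligand gene, Thbs2, up to 3 genes past the threshold per pathway list or otherwise the 2 with the smallest p, the 5 genes most correlated with Cd200 and with Pvr (log2 CPM, prior count 2, mean of at least 5 CPM, no predicted names; 1 of them is not reported here), and tested neighbours of Cd200. The neighbours of Pvr, Entpd4b, Entpd1, Sirpa, Thbs1, Cd24a, Cd80, Vsir, Lgals3, Stat2, Irf9 and the markers named singly were chosen after their values were seen. The other markers, of pericytes, glia and mesothelium, were not used beside a result.

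Libraries within a group differed by more than sampling noise (chi-square per degree of freedom of at least 3.78, lowest for Thbs2KO replicates 1 and 2), and all 6 were kept. Alternatives were RLE, upper-quartile and no scaling factors, limma-voom, DESeq2 1.42.0, a stricter or no filter, estimation that was not robust, unrounded counts, a replicate block, each library left out, WT replicate 1 and Thbs2KO replicate 3 left out together, and Thbs2KO replicates 1 and 2 summed.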

Additional observations from a re-analysis of the deposited data

How the results depend on the processing

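The 148 genes called by edgeR became 699 with DESeq2, 245 with no filter, 30 with the replicate block, 1519 without the 2 libraries that stood apart (WT replicate 1 and Thbs2KO replicate 3), 40 with Thbs2KO replicates 1 and 2 summed, and 38 to 397 with 1 library left out (397, 79 and 49 when it was WT replicate 1, 2 or 3, and 38 and 45 when it was Thbs2KO replicate 1 or 2). With library size alone the calls were 104 higher and 64 lower, against 75 and 73, and the median of all genes moved by 0.061 (log2). The 2 pathway genes called became 9 with DESeq2, 0 with the replicate block (14 at an unadjusted p under 0.05), 20 with both libraries left out, 1 with the pair summed and 1 to 4 with 1 library left out.

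The log2 fold change of Cd200 was 4.61 to 6.06 over all 18 alternatives, the same range as with 1 library left out, with 6.06 without WT replicate 2. Lgals9 turned from -0.30 to 0.0077 without WT replicate 1, and Nectin2 ranged from -0.12 to 0.07 around 0. Of the neighbours of Pvr, 5 called became 1 (Apoe) with the replicate block. Of those of Cd200, 0 became 6 without the 2 libraries that stood apart. The cause of these shifts was not tested.

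No pairing of the libraries by replicate number was visible. Deviations from the group means correlated at -0.29, 0.17 and -0.33 between same-numbered libraries, and 1 of 6 correlated best with its own number. With so few libraries, some of them apart from their group, this check cannot exclude a pairing. Depth limits Pdcd1lg2, Nt5e and Cd200 in WT, which rest on at most 35 reads a library.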
